A study of Homo sapiens with 12 samples.

Results

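This report covers 209 ZNF genes, the protein-coding genes whose symbol is ZNF followed by digits alone, in liver and colon cancer cells exposed to an extract of the red alga Hypnea musciformis (HME). Members were selected on their summed counts, with 150 or more counts over all 12 libraries required, out of 478 genes of that name and 57736 genes in all. A further 238 ZNF genes had between 1 and 149 counts and 31 had 0. The members just inside the threshold were ZNF627 with 155 counts, ZNF654 with 156 and ZNF850 with 158, and the genes just outside it were ZNF426 and ZNF573 with 149 each and ZNF514 with 146. By position, 78 members lay on chromosome 19 and 131 on other chromosomes, of which chromosome 16 held 23, chromosome 7 held 16 and chromosome 1 held 13.

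HepG2 is a liver cancer line and Ls174 a colon cancer line, both labelled as wild type, grown in serum-containing medium and harvested at 24 h. Each line had 3 untreated control libraries and 3 libraries from cells given HME, labelled as biological triplicates. The labels give a dose of 0.7 mg/ml, and the study's methods give a slightly higher concentration. RNA was read as short tags at transcript 3′ ends, so that a transcript gives about 1 tag whatever its length. The question for these genes was whether HME moved them in either line, and whether those on chromosome 19 moved apart from the rest. The samples are bulk cultures, in which fewer cells and less RNA per cell cannot be told apart.

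Most ZNF genes encode C2H2 zinc finger proteins, in which each finger folds around a zinc ion held by a pair of cysteines and a pair of histidines and touches a few bases of DNA. In humans the largest subfamily also carries a KRAB domain, which recruits the corepressor TRIM28 and through it the histone methyltransferase SETDB1. Many KRAB genes stand in tandem clusters on chromosome 19 and silence transposable elements, among other roles. The genes are mostly transcribed at low levels, which for a tag count means few reads a gene.

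The label was checked on the coding sequences of the GENCODE canonical transcripts on GRCh37. A coding sequence was found for 208 members, and 199 of these encoded at least 1 finger of the C2H2 spacing (cysteines separated by 2 to 4 residues, then 12 residues, then histidines separated by 3 to 5). The median was 9 fingers, 11 on chromosome 19 and 7 elsewhere. Conserved KRAB residues (aspartate and valine, 3 residues, phenylalanine, 2 residues, then 2 glutamates and a tryptophan) were found in 68 members (32.7%), in 46 of 78 on chromosome 19 (59.0%) and in 22 of 130 elsewhere (16.9%). The 9 members with no match included ZNF185, a LIM-domain protein of the actin cytoskeleton, and ZNF259, also known as ZPR1, so that the symbol alone does not make a member a C2H2 factor. An absent match says only that these residues were not found in the transcript read. ZNF670 was also among the 9, its gene ID being named ZNF670-ZNF695 in the annotation used.

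The coding sequence of 1 finger is shown for members on which the results below turn, 5′ to 3′ on the coding strand and read from GRCh37, with the codons of the zinc-binding cysteines and histidines in capitals. ZNF823, ZNF697 and ZNF516 were higher with HME in HepG2 at an adjusted p, ZNF652 was past the unadjusted thresholds in both lines, ZNF777 led the higher members in Ls174, and ZNF655 separated the untreated lines. The fingers lie at chr19:11833707-11833769 (minus strand), chr1:120166333-120166395 (minus), chr18:74154843-74154905 (minus), chr17:47389316-47389378 (minus), chr7:149129659-149129721 (minus) and chr7:99170371-99170433 (plus), in that order, each within 1 coding exon.
ZNF823: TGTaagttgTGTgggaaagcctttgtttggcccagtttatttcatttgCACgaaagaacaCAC
ZNF697: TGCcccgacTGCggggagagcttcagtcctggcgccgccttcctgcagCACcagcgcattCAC
ZNF516: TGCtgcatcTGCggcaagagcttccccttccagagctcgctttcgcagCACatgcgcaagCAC
ZNF652: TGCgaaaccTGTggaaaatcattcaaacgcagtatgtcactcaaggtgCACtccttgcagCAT
ZNF777: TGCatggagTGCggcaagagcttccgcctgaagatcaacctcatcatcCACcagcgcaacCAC
ZNF655: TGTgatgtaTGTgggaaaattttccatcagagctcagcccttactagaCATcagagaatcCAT

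Libraries held between 1790841 and 3656662 counts, of which the 209 members took 0.381% to 0.544%. Without ZNF623 and ZNF341 the share was 0.356% to 0.448%, and HepG2 HME 2 went from the highest to the lowest. The median member had 360 counts over the 12 libraries, and 181 members had a count in each of them, so counting error alone is large for most. Hepatocyte markers (8 genes) summed to 12801 to 21301 CPM (counts per 1000000 scaled reads) in HepG2 and to 126 CPM at most in Ls174. The 126 CPM was in Ls174 control 3, with counts of all 8 genes. Ls174 HME 1 had 57.6 CPM, and the other Ls174 libraries had 9.48 CPM at most. Colon and goblet cell markers (8 genes) summed to 382 to 505 CPM in Ls174 and to 204 CPM at most in HepG2. Of these, MUC2 and CEACAM5 had no count in HepG2, but both also had none in Ls174 control 1, and MUC2 none in Ls174 HME 3. KRT20 went the other way, with a count in Ls174 HME 1 alone of the Ls174 libraries and in HepG2 control 1, HME 1 and HME 2. HepG2 HME 2 stood apart with 35 of the 38 protein-coding genes that were at least 10 times higher in 1 library than in the next, and with a mesenchymal marker sum of 1073 CPM against 86.8 CPM at most elsewhere, carried by COL1A1, COL1A2 and SPARC, while COL6A3, DCN and LUM had no count in it. HepG2 control 2 differed most from its replicates (chi-square per degree of freedom 54.1 and 49.1, against 13.6 between the other 2 controls), and Ls174 control 1 had 13885 genes with a count against 16839 or more in every other library. The counts of members called with HME in each line are also given without these 3 libraries.

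ZNF623, a gene with 13 fingers and no KRAB match at chr8:144733654-144735900, had almost all of its counts in 1 library. Its counts were 17, 9 and 12 in HepG2 controls, 14, 6595 and 6 with HME, 15, 8 and 21 in Ls174 controls, and 9, 16 and 25 with HME. HepG2 HME 2 thus held 97.7% of its 6747 counts, and the other 2 HME libraries overlapped with the controls. In that library ZNF623 was the 76th most abundant gene at 2309 CPM, 283 times the next library, and took 0.187% of the counts (exact 95% interval 0.183 to 0.192%, which covers counting error only). The fitted log2 fold change in HepG2 was 7.29 (SE 2.17, edgeR adjusted p = 0.0955), and it was -0.07 without HepG2 HME 2. The part of the mesenchymal marker signal of the same library in this value was not tested. Without that library ZNF623 kept 152 counts, enough for it to remain a member.

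ZNF341, with 10 fingers at chr20:32378794-32380272, showed the same form in another library. Ls174 control 1 held 611 of its 793 counts (77.0%), and the other 11 libraries held between 9 and 23. At 299 CPM that library was 31.3 times the next. The Ls174 log2 fold change was -4.50 (SE 1.54, edgeR adjusted p = 0.257) and -0.29 without Ls174 control 1. ZNF341 is needed for transcription of STAT3, which is background only. No other member had over 50% of its counts in 1 library, and the next highest share was 47.8%, for ZNF749 in HepG2 control 2. Genes with a 10-fold single-library excess made up 0.374% of the 10169 protein-coding genes with 150 or more counts, and 2 of the 38 were members.

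**Figure D1:**
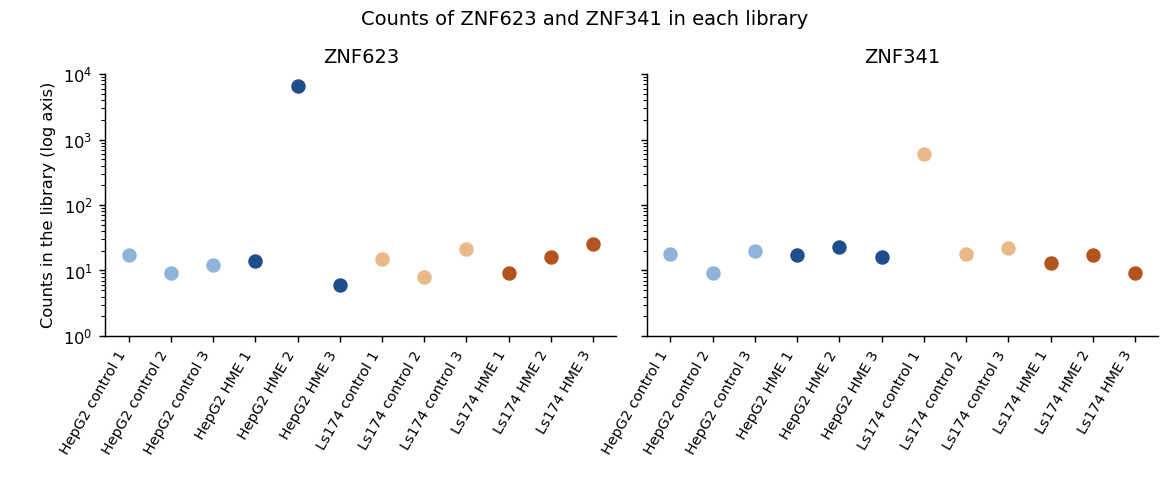
Counts of ZNF623 and ZNF341 (log axis) in each of the 12 libraries, 1 point a library. ZNF623 stands at 6595 in HepG2 HME 2 and at 6 to 25 elsewhere, and ZNF341 at 611 in Ls174 control 1 and at 9 to 23 elsewhere.

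In HepG2, ZNF genes passed the thresholds in both directions and about as often as other genes. Of 192 members tested, 51 passed an unadjusted edgeR p under 0.05 with a log2 fold change past 0.58, which is 26.6% against 22.2% of all 11343 genes tested. They split into 26 higher, ZNF623 among them, and 25 lower, against 1282 higher (11.3%) and 1235 lower (10.9%) of all 11343 genes. With counts scaled by library size alone the split was 16 higher and 32 lower, against 861 and 1729 of all genes. With HepG2 control 2 left out it was 38 and 17, against 1675 and 1199 of all genes. The balance between directions thus moved with the scaling and with that library, in the members and in all genes. The HME and control libraries did not overlap for 63 members (32.8%), against 30.8% of all genes. At an edgeR adjusted p under 0.05 there were 5 members (2.60%), against 3.31% of all genes, with 4 higher and 1 lower. Without HepG2 control 2 there were 10 (5.03%, against 7.74% of all genes), the 5 and ZNF622, ZNF746 and ZNF335, higher, and ZNF764 and ZNF395, lower. Without HepG2 HME 2 there were 0, against 1.21% of all genes. Leaving out HepG2 HME 2 gave 31 members at the unadjusted thresholds (15.6%, against 15.2% of all genes), and leaving out HepG2 HME 3 gave 28 (13.9%, against 14.5%). The median log2 fold change of the members was 0.08, and that of all genes was -0.04.

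ZNF823, a KRAB member with 15 fingers on chromosome 19, had the largest fold change among those with an adjusted p under 0.05. Its level was 5.61, 3.09 and 11.2 CPM in the controls and 50.8, 31.9 and 28.1 CPM with HME, which is 6.65 ± 4.18 against 36.9 ± 12.2 CPM (SD, n = 3 each). The lowest HME library was above the highest control, and the log2 fold change was 2.47 (SE 0.47, edgeR adjusted p = 0.0216). It kept a log2 fold change of 2.19 to 3.02 with any 1 library left out.

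ZNF697, with 11 fingers on chromosome 1, was the most even of the group. It stood at 30.2, 40.8 and 41.8 CPM in the controls and at 108, 106 and 115 CPM with HME. The groups lay far apart, with means of 37.6 ± 6.44 and 109.7 ± 4.94 CPM (SD, n = 3) and a log2 fold change of 1.55 (SE 0.30, edgeR adjusted p = 0.0252). ZNF516, a 10-finger factor known as an activator of UCP1 in brown fat, rose from 10.1, 6.80 and 14.1 CPM to 31.9, 35.7 and 31.1 CPM. These groups did not overlap either, and the log2 fold change was 1.67 (SE 0.35, edgeR adjusted p = 0.0326). ZNF670 went from 23.2, 14.2 and 23.7 CPM to 50.4, 48.3 and 58.5 CPM, a log2 fold change of 1.37 (SE 0.31, edgeR adjusted p = 0.0467). Of its counts, 22.0% fell in a region shared with ZNF695, with which it also forms a readthrough transcript. In the annotation used, its gene ID carries the name ZNF670-ZNF695, and the transcript read coded for 137 residues with 0 fingers. The region with most of its counts (66.9%) lay in an intron of that transcript, with no exon bases. Where that region lies in the transcripts of ZNF670 alone was not examined.

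ZNF318, known in mice for its role in the splicing that yields IgD in B cells, was the 1 member lower at an adjusted p. Its controls held 16, 24.1 and 15.7 CPM and its HME libraries 4.72, 3.85 and 5.97 CPM. The groups did not overlap, and the log2 fold change was -1.94 (SE 0.41, edgeR adjusted p = 0.0353). None of the 5 members kept an adjusted p under 0.05 when any 1 HME library was left out, their fold changes keeping their sign. Without HepG2 control 1 none of the 5 passed either (2.15% of all genes did), and without HepG2 control 3 only ZNF823 did (1.31% of all genes). With HepG2 control 2 and HepG2 HME 2 both left out, 6 members passed (3.06%, against 6.03% of all genes), namely ZNF823, ZNF697, ZNF516 and ZNF670 again with ZNF622 and ZNF746, and ZNF318 did not.

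Among the higher members past the unadjusted thresholds, ZNF622, the human counterpart of a yeast factor for late 60S ribosome maturation, went from 34.7 ± 3.43 to 81.9 ± 11.6 CPM (SD, n = 3, log2 fold change 1.25, SE 0.30, edgeR adjusted p = 0.0540). ZNF143, an activator of small nuclear RNA and many protein-coding promoters, went from 7.03 ± 1.30 to 16.6 ± 4.22 CPM (log2 fold change 1.24, adjusted p = 0.103). ZNF202, a repressor of lipid metabolism genes, went from 5.23 ± 0.907 to 13.7 ± 4.42 CPM (log2 fold change 1.37, adjusted p = 0.106). For these 3, as for ZNF544 and the ZMYND8 partner ZNF592, each HME library was above each control.

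Among the lower members past the same thresholds, ZNF91, a KRAB protein that represses SVA retrotransposons, went from 17.5 ± 7.98 to 5.97 ± 2.11 CPM (SD, n = 3, log2 fold change -1.50, SE 0.48, edgeR adjusted p = 0.114). ZNF764 had 21.4, 40.2 and 27.3 CPM in controls and 10.2, 7.70 and 10.2 CPM with HME (log2 fold change -1.65, adjusted p = 0.0516). ZNF395, which binds the promoter of the Huntington disease gene, had 36.9, 94.6 and 53.4 CPM in controls and 16.5, 21 and 22.7 CPM with HME (log2 fold change -1.62, adjusted p = 0.0673), with all of its counts in regions shared with FBXO16. In ZNF91, ZNF764 and ZNF395 the highest control was HepG2 control 2, and without it their log2 fold changes were -1, -1.31 and -1.10. ZNF789 had the fewest counts of the 10, with 44, 9 and 25 counts in controls and 10, 3 and 0 with HME. ZNF248, ZNF268, ZNF362, ZNF629 and ZNF652 completed the 10, with log2 fold changes between -1.20 and -1.52, and for ZNF268 and ZNF362 over 98% of the counts were shared with an overlapping gene.

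**Figure D2:**
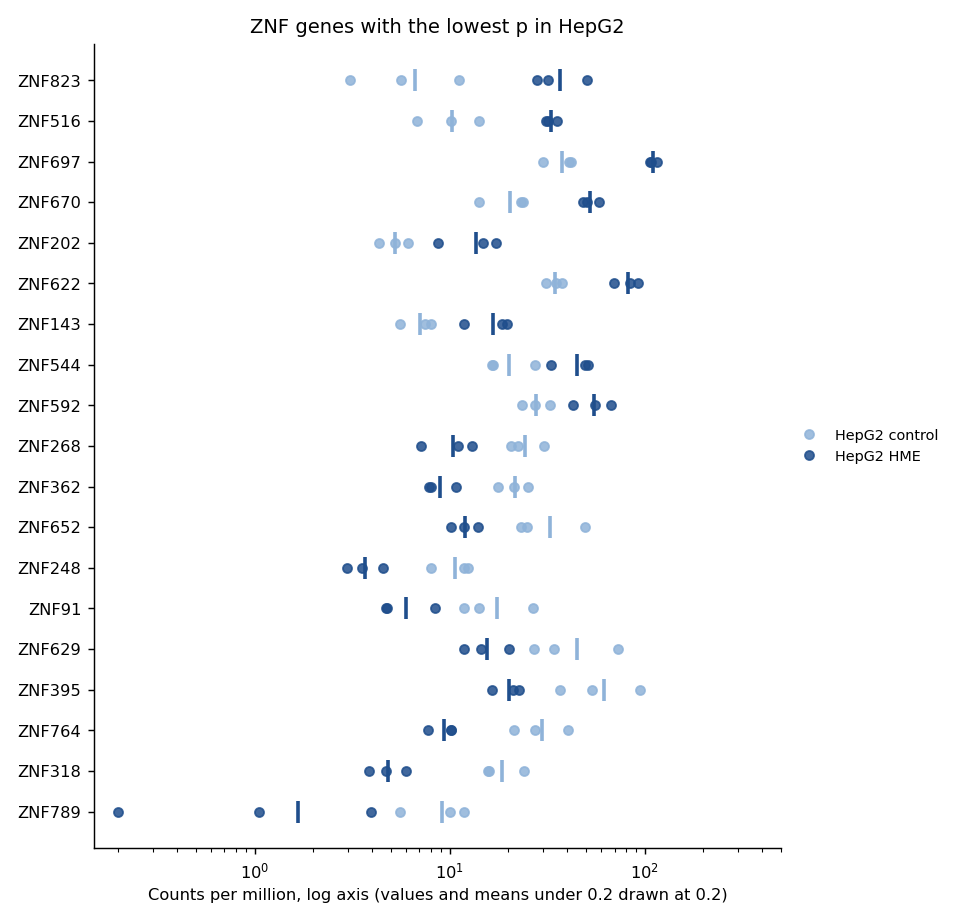
CPM (log axis, values and means under 0.2 drawn at 0.2) of the 19 ZNF genes with the lowest p in HepG2, ZNF623 left out, 1 point a library and a bar at the mean of 3. Every gene shown has its HME points wholly above or wholly below its control points, with ZNF823 widest at the top and ZNF789 at the bottom.

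On chromosome 19, 15 of 69 members tested in HepG2 passed the unadjusted thresholds (21.7%, 7 higher and 8 lower), and elsewhere 36 of 123 did (29.3%, 19 higher and 17 lower). The median log2 fold change was -0.13 on chromosome 19 and 0.16 elsewhere. All genes had a share of 22.2% and a median of -0.04. In HepG2 control 2 the chromosome 19 members summed to 1850 CPM against 1141 to 1190 CPM in the other 2 controls and 1267 to 1324 CPM with HME. ZNF430 alone stood at 347 CPM in that library and at 110.0 and 67.5 CPM in the other controls. Without HepG2 control 2 the medians were -0.01 and 0.08 and the shares called 18.1% and 33.1%. Without HepG2 HME 2 the medians were -0.16 and 0.13 and the shares 9.59% and 19%. With both left out the medians took the opposite order, 0.10 and 0.05, and the shares kept theirs, 14.1% and 25.6%. The difference between the classes was not tested. Members with and without the KRAB match passed the thresholds at 26.2% and 26.9%, with medians of -0.14 and 0.14.

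In Ls174, a smaller share of ZNF genes than of all genes passed the thresholds. Of 198 members tested, 10 passed the unadjusted thresholds (5.05%), against 12% of all 11319 genes. The 10 were 2 higher and 8 lower, ZNF341 among the latter, against 465 higher (4.11%) and 888 lower (7.85%) of all 11319 genes. Members under the median member total passed at 3.19% and those at or above it at 6.73%. The part of read counts in the lower share was not tested. Groups did not overlap for 29 members (14.6%), against 23.8% of all genes. No member had an edgeR adjusted p under 0.05, against 1.18% of all genes. At an unadjusted p under 0.05 with no fold threshold there were 11, and DESeq2 gave 2 at an adjusted p under 0.05 (1.01%, against 3.83% of all genes), ZNF488 and ZNF704. Without Ls174 control 1 the count rose to 20 (10.1%, against 15.6% of all genes), and 5 members then had an adjusted p under 0.05 (2.51%, against 8.39% of all genes), namely ZNF275, ZNF395, ZNF488 and ZNF704, all lower, and ZNF777, higher. Without Ls174 HME 1, 2 or 3 the count was 6, 5 or 6 (3.03%, 2.53% or 3.02%, against 9.48%, 7.15% or 7.58% of all genes). The median log2 fold change of the members was 0.06 and that of all genes 0.00.

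ZNF777 had 4.89, 12 and 11.5 CPM in the Ls174 controls and 30.1, 20.5 and 17.3 CPM with HME. Its groups did not overlap, and the log2 fold change was 1.22 (SE 0.39, edgeR adjusted p = 0.222). ZNF704, a sequence relative of ZNF395, had 20.1, 11.7 and 12.2 CPM in controls and 3.26, 5.66 and 5.55 CPM with HME (log2 fold change -1.59, SE 0.41, adjusted p = 0.136). ZNF488, a corepressor known from oligodendrocyte differentiation, had 28.4, 11.4 and 7.89 CPM in controls and 5.07, 2.12 and 1.31 CPM with HME (log2 fold change -2.47, SE 0.67, adjusted p = 0.151, and -1.76 without Ls174 control 1). The HME libraries of both lay below all controls. ZNF865, ZNF367, ZNF343 and ZNF775 were the other lower members beside ZNF341 and ZNF652, with log2 fold changes between -0.72 and -1.02, and ZNF775 had groups that overlapped and did not pass without Ls174 control 1 (-0.47).

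**Figure D3:**
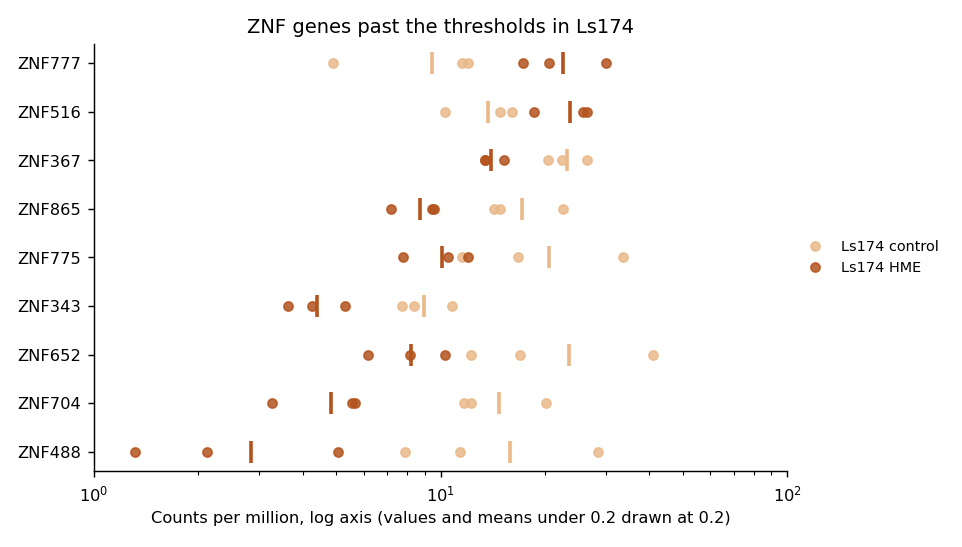
CPM (log axis) in Ls174 of the 9 ZNF genes past the unadjusted thresholds other than ZNF341, 1 point a library and a bar at the mean of 3. HME points lie above the controls for ZNF777 and ZNF516 and below them for the rest, apart from ZNF775, where they overlap.

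On chromosome 19, 1 of 72 members tested in Ls174 passed (1.39%, ZNF865), and elsewhere 9 of 126 did (7.14%). The medians were 0.10 and 0.05. Against the control mean, the HME libraries had medians of 0.05, 0.18 and 0.26 on chromosome 19 and of 0.00, 0.10 and 0.16 elsewhere. The control libraries had 0.02, -0.02 and 0.10 on chromosome 19 and -0.03, 0.01 and 0.05 elsewhere. The difference between the classes was not tested. Of the 10, 9 lacked the KRAB match, out of 135 such members tested, and ZNF488 had no coding sequence to read, while 62 members with the match were tested. The summed level of the chromosome 19 members was 1284 ± 178 CPM in controls and 1290 ± 15.1 CPM with HME (SD, n = 3).

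Only ZNF516 and ZNF652 passed the unadjusted thresholds in both lines, each in 1 direction. ZNF516 in Ls174 went from 10.3, 16.1 and 14.8 CPM to 26.5, 25.8 and 18.6 CPM (log2 fold change 0.77, SE 0.29, edgeR adjusted p = 0.305). ZNF652, a repressor that works with the corepressor CBFA2T3, had 24.8, 49.5 and 23.3 CPM in HepG2 controls and 11.8, 14.0 and 10.2 CPM with HME (log2 fold change -1.42, SE 0.42, adjusted p = 0.0917). In Ls174 ZNF652 had 41.1, 17.0 and 12.2 CPM in controls and 6.16, 10.3 and 8.17 CPM with HME (log2 fold change -1.50, SE 0.49, adjusted p = 0.240). Neither gene had groups that overlapped in either line. In the HepG2 controls and the Ls174 controls of ZNF652 the highest value was in HepG2 control 2 and Ls174 control 1, and without them the log2 fold changes were -0.92 and -0.81.

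**Figure D4:**
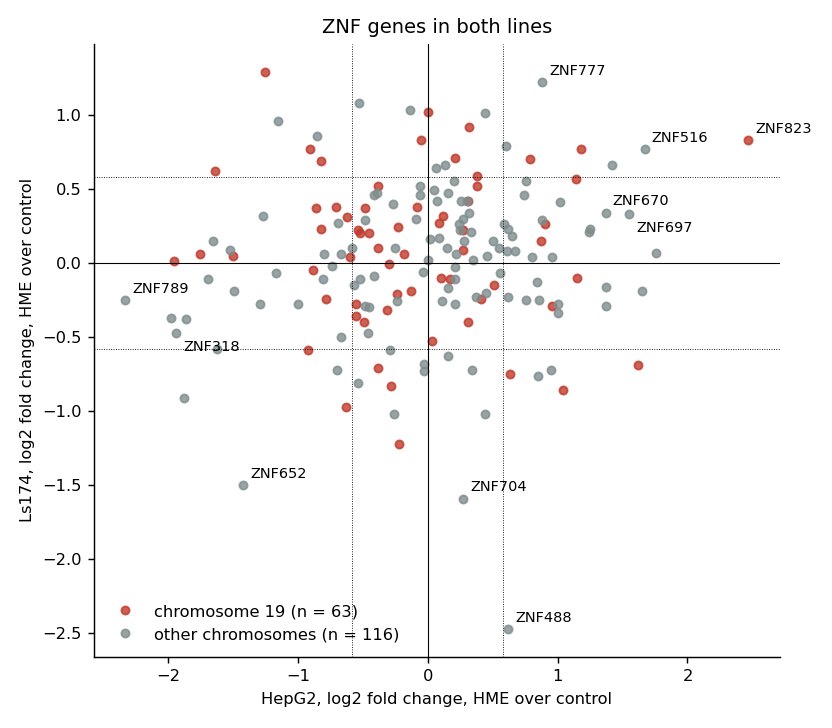
Log2 fold change of HME over control in HepG2 (x axis) and Ls174 (y axis) for the 179 ZNF genes tested in both lines other than ZNF623 and ZNF341, 63 on chromosome 19 in red and 116 elsewhere in grey, with dotted lines at 0.58 in either direction. Points spread more along HepG2 than along Ls174, and both classes surround 0.

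The difference between the lines was tested by the interaction of line and treatment on all 12 libraries. No member of 209 passed an edgeR adjusted p under 0.05, against 0.644% of 13040 genes, while 36 had an unadjusted p under 0.05 and a log2 difference past 0.58 (17.2%, against 13.2% of all genes), 18 in each direction. DESeq2 gave 1 member at an adjusted p under 0.05, ZNF488, against 380 of all 13040 genes. For ZNF697, which went up in HepG2 and had a log2 fold change of 0.33 in Ls174 (adjusted p = 0.664), the difference of Ls174 minus HepG2 was -1.21 (SE 0.38, edgeR adjusted p = 0.186). For ZNF823 it was -1.63 (SE 0.79, adjusted p = 0.391) and for ZNF318 1.47 (SE 0.52, adjusted p = 0.233). A difference between the lines was thus not shown for these 3.

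The untreated lines differed in a smaller share of ZNF genes than of all genes. At an edgeR adjusted p under 0.05 and a log2 fold change past 1, 9 of 204 members tested were higher in Ls174 controls (4.41%, against 9.31% of 11907 genes) and 18 were higher in HepG2 controls (8.82%, against 14.1%). Members under the median member total were called at 11.1% and those at or above it at 15.2%. The part of read counts in the smaller share was not tested. Chromosome 19 held 4 of the 9 and 7 of the 18. Of the 74 members tested on chromosome 19, 14.9% were called in either direction, against 12.3% of 130 elsewhere and 23.4% of 11907 genes. A difference between the classes was not tested. The 27 were 12 without Ls174 control 2, 14 without Ls174 control 3 and 14 without HepG2 control 3. No share of all genes is set beside these counts, so they do not show a drop particular to ZNF genes.

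ZNF655, a protein that binds the signalling factor VAV1, had 116, 66 and 104 counts in HepG2 controls and 0, 0 and 1 in Ls174 controls. The HME libraries followed their line, with 68, 72 and 49 counts in HepG2 and 0, 0 and 1 in Ls174. The scaled ratio of HepG2 to Ls174 controls was 336, with an exact 95% counting interval of 59.7 to 13300 (edgeR adjusted p = 0.000118). ZNF114, a KRAB member of chromosome 19, had 24, 12 and 14 counts in HepG2 controls and 0 in all 6 Ls174 libraries, which puts HepG2 at least 4.42-fold higher against a floor of 3 counts a library (adjusted p = 0.00215). ZNF268 had 20.6, 22.3 and 30.5 CPM in HepG2 controls and 2.45, 1.24 and 3.05 CPM in Ls174 controls (log2 fold change -3.45, SE 0.50, adjusted p = 0.00116). ZNF827, known for bringing the NuRD complex to telomeres, had 59, 26 and 18 counts in HepG2 controls and 0, 0 and 5 in Ls174 controls (adjusted p = 0.00764). ZNF749 had 39, 140 and 35 counts in HepG2 controls and 0, 0 and 2 in Ls174 controls, with 98.6% of its counts in a region shared with an overlapping gene. The Ls174 control counts of ZNF655, ZNF827 and ZNF749 were all in Ls174 control 3, which also had counts of all 8 hepatocyte markers. Whether these share a source was not tested.

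ZNF618, which binds 5-hydroxymethylcytosine together with UHRF2, led the members higher in Ls174. Its controls held 34, 111 and 140 counts in Ls174 and 1, 0 and 2 in HepG2, a scaled ratio of 81.0 with an exact 95% counting interval of 27.4 to 395 (edgeR adjusted p = 0.000445). ZNF350, also named ZBRK1 and known as a repressor that works with BRCA1, stood at 15.6 ± 2.60 CPM in Ls174 and 3.19 ± 2.71 CPM in HepG2 controls (SD, n = 3, log2 fold change 2.20, adjusted p = 0.0355). ZNF609 stood at 19.4 ± 7.48 and 5.79 ± 1.94 CPM (log2 fold change 1.69, adjusted p = 0.0358). For each of these genes the controls of the lines did not overlap. ZNF697 and ZNF488 also differed between the untreated lines, the first higher in HepG2 (adjusted p = 0.0212) and the second higher in Ls174 (adjusted p = 0.05).

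**Figure D5:**
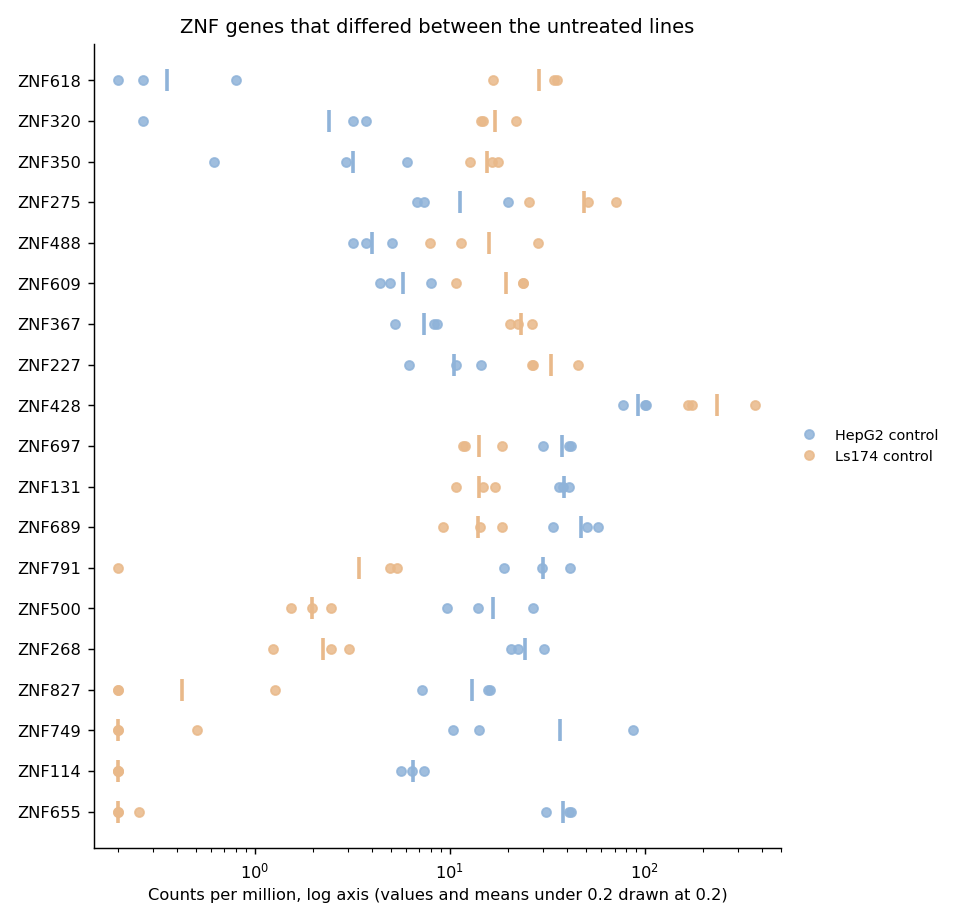
CPM (log axis, values and means under 0.2 drawn at 0.2) of 19 ZNF genes in the untreated controls of both lines, 1 point a library and a bar at the mean of 3. Genes higher in Ls174 stand at the top, with ZNF618 first, and genes higher in HepG2 below, with ZNF655 last.

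After ZNF623, the members with the largest mean level over all libraries were ZNF428 (156 CPM), ZNF768 (144 CPM), ZNF430 (134 CPM) and ZNF770 (131 CPM), and none of them passed the thresholds in either line. ZNF430 had a HepG2 log2 fold change of -0.18 (SE 0.60), and of 0.89 without HepG2 control 2.

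Of 30 genes listed as KRAB corepressors and their partners, 29 were found. In HepG2, 1 was higher and 4 were lower of 28 tested at the unadjusted thresholds (17.9%, against 22.2% of all genes), with a median log2 fold change of -0.03. In Ls174 0 were higher and 3 lower of 28 (10.7%, against 12% of all genes), with a median of -0.17. None had an edgeR adjusted p under 0.05 in either line, DESeq2 gave 2 in HepG2 (MBD3 and RBBP4, both lower) and 0 in Ls174, and at an unadjusted p under 0.05 the counts were those 5 in HepG2 and 4 in Ls174. MBD3 had 220, 680 and 159 counts in HepG2 controls and 109, 148 and 78 with HME, and RBBP4 had 406, 788 and 477 and then 272, 233 and 130, both highest in HepG2 control 2. Their log2 fold changes were -1.98 and -1.59, and -0.31 and -0.68 without that library, where MBD3 no longer passed. TRIM28 had 79.2 ± 4.55 CPM in HepG2 controls and 73.2 ± 21.4 CPM with HME (SD, n = 3, log2 fold change -0.11, adjusted p = 0.865). In Ls174 it had 213 ± 107 and 125 ± 15.2 CPM (log2 fold change -0.78, edgeR adjusted p = 0.368), and without Ls174 control 1, its highest control, the log2 fold change was -0.27 (edgeR adjusted p = 0.374) and it no longer passed. SETDB1 had log2 fold changes of 0.28 (SE 0.52) in HepG2 and 0.27 (SE 0.31) in Ls174. CBX5, a heterochromatin protein, passed the unadjusted thresholds in both lines, with log2 fold changes of -1.16 in HepG2 and -0.75 in Ls174 (edgeR adjusted p = 0.194 and 0.197), but not in HepG2 without HepG2 HME 2 (-1.19, adjusted p = 0.394).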

How the data were processed

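The authors prepared QuantSeq 3′ libraries for Ion Torrent sequencing, checked reads with FASTQC, aligned them with Hisat2 to hg19 and passed them to metaseqR2 (version not given in the sources used here). The submitters' processing notes also name Bowtie2 and Trimmomatic. The deposited files hold unnormalized whole-number counts per 3′ region. Here the regions of a gene were summed. Of the members, 23 had a region that overlaps another gene, and reads of near-identical KRAB paralogs may be split between genes. The region with most counts lay in an intron of the canonical transcript for 9 members, among them ZNF670 (read as ZNF670-ZNF695), ZNF430, ZNF789 and ZNF749. It lay outside that transcript for 4 members. Whether such counts come from the named gene was not tested. Tests used edgeR 4.0.16 in R 4.3.3 (TMM, filterByExpr, quasi-likelihood F test, Benjamini-Hochberg adjustment over all genes tested), fitted for each line on its 6 libraries, on the 6 controls, or on all 12 libraries for the interaction. SE was derived from the F statistic, and CPM used TMM over all libraries. Thresholds were an unadjusted p under 0.05 with a log2 fold change past 0.58, or an adjusted p under 0.05. DESeq2 1.42.0 was an alternative. The fits were tested on simulated data. No replicate pair differed by as little as sampling noise. Depth was 1790841 to 3656662 counts, where 3 counts equal 1.09 to 1.85 CPM.

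Named members were, in each line, the 10 with the lowest p in each direction among those past the unadjusted thresholds, all called in both lines or at an adjusted p, the 10 leading in each direction between untreated lines, the 5 with the largest mean CPM, ZNF623, ZNF341, and members with 50% or more of their counts in 1 library. ZNF335, ZNF746, ZNF275, ZNF302 and ZNF548 were named after their values were seen. The members and lists were chosen with earlier results of these data known. Finger and KRAB matches were read from GENCODE coding sequences (Biopython 1.88) because no protein table was used. Figures used matplotlib 3.10.9.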

Additional observations from a re-analysis of the deposited data

How the results depend on the processing

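The 51 HepG2 members ranged from 28 to 55 with 1 library left out, 42 remained in number without both libraries that stand apart (chosen after seeing the data, 33 of them shared with the 51), and 5 passed an adjusted p. At an adjusted p the 5 in HepG2 (3.31% of all genes) were 14 with DESeq2 (9.11%) and 12 in 1 fit of all 12 libraries (6.19%). They were 20 with every gene fitted (5.75%), 1 with a replicate block (3.08%) and 0 to 10 with 1 library left out (0.793% to 7.74%). ZNF623, with 97.7% of its counts in 1 library, was among the 12 and the 20. The 10 Ls174 members ranged from 5 to 20 with 1 library left out (2.53% to 10.1%, against 7.15% to 15.6% of all genes) and were 0 at an adjusted p. The 27 members between the untreated lines ranged from 12 to 28 with 1 library left out, and were 47 in 1 fit of all 12 libraries and 10 with 10 counts required in every library. The interaction gave 0 members, 1 with DESeq2, 5 with every gene fitted (ZNF623 and ZNF341 among them) and 0 to 1 with 1 library left out (ZNF764 without Ls174 control 1). With a replicate block the counts were 41 in HepG2 (21.4%, against 18.3% of all genes), 6 in Ls174 (3.03%, against 10.0%) and 9 between the lines. No share of all genes is set beside the counts between the lines and of the interaction, so they do not show a change particular to ZNF genes. The correlation of the deviations of same-numbered libraries was -0.17 to 0.09, so the numbers were not taken to pair the samples. The HepG2 chromosome 19 median of -0.13 was -0.27 by library size, -0.27 with 10 counts in every library, 0.00 for members of 100 or more counts, -0.24 for 300 or more, 0.10 without both libraries that stand apart, and ranged from -0.19 to -0.01 with 1 library left out. The median elsewhere, 0.16, was -0.02 by library size, 0.05 without both libraries, and ranged from 0.07 to 0.25. Scaling by library size moved the median of all genes from -0.04 to -0.20, and relative to it the medians were -0.07 and 0.17. The HepG2 fold change turned sign for ZNF623 without HepG2 HME 2 (-0.07, range -0.07 to 7.90 with 1 library left out) and for ZNF430 without HepG2 control 2 (0.89, range -0.58 to 0.89). Of 877 recalculated fold changes of named genes, 89 lost and 2 gained their call. Unless a library or rule is named, the cause was not tested.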

Other observations

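Other zinc finger families by name were counted in the same way. In HepG2, 5 of 22 tested ZBTB genes, whose BTB domain pairs the proteins, passed the unadjusted thresholds as higher and 1 as lower (27.3%, against 22.2% of all genes), with a median log2 fold change of 0.11, and in Ls174 0 and 1 of 23 did (4.35%, against 12% of all genes). The higher ones were ZBTB10, ZBTB11, ZBTB21, ZBTB38 and ZBTB43, with log2 fold changes of 1.25 to 2.89, and none had an edgeR adjusted p under 0.05, whereas DESeq2 gave all 5. ZBTB11, the one at 2.89, had 70, 410 and 31 counts with HME and 36, 4 and 33 in controls, and its log2 fold change was 1.46 without HepG2 HME 2. The ZFP genes gave 2 higher and 2 lower of 7 tested in HepG2 (57.1%). ZFP36, which is the mRNA decay factor tristetraprolin and no C2H2 protein, had a HepG2 log2 fold change of 4.47 (SE 0.59, edgeR adjusted p = 0.00400) and 0.17 in Ls174. Its HepG2 counts were 1, 1 and 3 in controls and 49, 37 and 23 with HME. The controls were at or under the floor of 3 counts a library, so the size of the HepG2 fold is uncertain. ZKSCAN1, a KRAB and SCAN factor abundant in liver, had a HepG2 log2 fold change of -1.97 (SE 0.36, adjusted p = 0.0197). Of 11 tested ZNF genes with a letter after the digits, 0 were higher and 2 lower in HepG2 (18.2%), with a median of -0.48, and in Ls174 0 passed. None had an edgeR adjusted p under 0.05, and DESeq2 gave 1 in HepG2 and 0 in Ls174.

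ZNF302 and ZNF548 did not pass the count filter of the fit of the untreated lines, each having 0 counts in all 3 controls of 1 line and a low control in the other (5 counts of ZNF302 in Ls174 control 1, 6 of ZNF548 in HepG2 control 2). ZNF302 had 0 counts in the HepG2 controls and 68 in the Ls174 controls, at least 3.61-fold higher against the floor of 3 counts a library. ZNF548 had 85 counts in the HepG2 controls and 0 in the Ls174 controls, at least 6.74-fold higher.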
